A study of Mus musculus with 28 samples.

Results

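The genes described here are Ccl2, Ccl7, Cxcl1, Mmp3, Ptgs2 and Grem1, 6 of the 38727 genes represented on a mouse expression array. They were chosen because earlier results on these arrays had shown them to be high in cultured GS cells, so their GS levels are given as a description, without a test. They are measured by 7 probes, which were named through the RefSeq accession in the array files: 1 probe for each gene and a second one for Grem1.

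The series holds 28 single-colour Agilent arrays in 14 groups of 2, covering mouse germ cells, the lines cultured from them and adult testis. Primordial germ cells (PGC) of each sex at 10.5, 13.5 and 17.5 days post coitum came from BDF1 x TgN(deGFP)18Imeg embryos. Oogonia and spermatogonia came from BDF1 x Tg(Mvh-Venus)1Rbrc mice. The cultured groups were EG cells of each sex, ES cells of each sex and GS cells. The EG cells carry 12.5 days post coitum PGC as their source, from a cross of Rb(X.2)2Ad with 129/Sv. The ES cells were the female line no5, of strain 129/Sv, and the male line TMA5, an F1 hybrid of TgN (deGFP)20Imeg and MSM/Ms, so sex and line cannot be told apart there. The GS cells were male DBA/2, and the testis was adult C57BL/6J. No treatment is named. All groups carry the same culture entry, a humidified incubator with 5% CO2, and the labels name neither feeder cells nor a sort. Nor do they state whether paired arrays represent distinct animals or cultures. The p-values therefore concern these samples alone, and part of what sets them apart may be technical. They also rest on a spread estimated for each gene over all 14 groups, including groups outside the comparison.

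GS cells are germline stem cells, the cultured counterpart of spermatogonial stem cells, and such cells are commonly grown on a layer of fibroblasts. Activated fibroblasts are a known source of the chemokines Ccl2, Ccl7 and Cxcl1, which draw monocytes or neutrophils, of the matrix-degrading enzyme Mmp3 and of Ptgs2, the inducible enzyme of prostaglandin synthesis. Grem1 is a secreted antagonist of bone morphogenetic proteins and is made by fibroblasts and other stromal cells. Inflammatory signals often act on such genes through the factors NF-kB and AP-1.

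The promoters of the genes were searched for 3 motifs on both strands over the 250 bases before the start: the TATA box (TATAAA), the AP-1 motif (TGANTCA) and the NF-kB consensus. The promoter table from RefSeq (GRCm38.p6) held entries for Cxcl1, Mmp3, Ptgs2 and Grem1. The 150 bases before the start are shown for the gene with an NF-kB match, the gene with an AP-1 match and 1 gene with neither, 5′ to 3′ on the gene's strand, with the matches in capitals.
Cxcl1, chr5:90891095-90891244, plus strand: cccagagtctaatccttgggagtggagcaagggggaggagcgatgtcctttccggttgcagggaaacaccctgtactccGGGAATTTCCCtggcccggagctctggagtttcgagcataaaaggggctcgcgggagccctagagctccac
Mmp3, chr9:7445672-7445821, plus strand: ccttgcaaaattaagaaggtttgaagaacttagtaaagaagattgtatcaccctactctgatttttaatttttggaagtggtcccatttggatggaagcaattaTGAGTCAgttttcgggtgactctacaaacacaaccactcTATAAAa
Ptgs2, chr1:150099881-150100030, plus strand: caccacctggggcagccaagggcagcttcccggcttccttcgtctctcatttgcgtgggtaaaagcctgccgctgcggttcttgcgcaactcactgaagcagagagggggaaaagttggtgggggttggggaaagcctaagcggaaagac
In Cxcl1 the NF-kB consensus matched on both strands, at -71 to -62 and, overlapping it, at -70 to -61 relative to the start. Mmp3 held the AP-1 motif at -46 to -40 and TATAAA at -7 to -2. None of the 3 motifs was in the 250-base windows of Ptgs2 and Grem1. Of 32851 promoters in the table, 7.25% held the NF-kB consensus, 6.75% the AP-1 motif and 12.4% TATAAA in a window of that length. A match describes the letters only, and says nothing of binding.

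A level is the log2 processed signal of a probe minus the 75th percentile, on the same array, of the probes measured on all arrays. A probe counts as measured where the scanner software called it well above background. Probes differ in brightness for the same amount of RNA, so levels are compared between arrays and not between genes. The share of probes measured ran from 17.8% on a 10.5-day PGC array to 76.8% on a testis array, and the lowest measured level ran from -10.72 to -3.58, so dim genes could be followed further down in GS, EG, ES and testis than in PGC. GS cells had 10 of 10 germ cell markers and 10 of 10 spermatogonial markers on both arrays. EG and ES cells had 9 of 9 pluripotency markers on all 8 arrays, and testis had 5 of 5 Leydig markers on both. However, EG and ES cells also had 9 of 10 germ cell markers and 7 to 9 of 10 spermatogonial markers. GS cells had 8 and 9 of 9 pluripotency markers. The germ cell, spermatogonial and pluripotency counts alone therefore do not tell these cultured groups apart.

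All 6 genes, each by its probe of highest mean, had their highest group mean in GS cells. This held with the percentile taken over all probes, with normexp background correction and with the deposited values. The genes were chosen for a high GS level on these same arrays, so this rank is a description and no support. In the order of group means, female ES cells came next for Ccl2, Ccl7, Cxcl1, Mmp3 and Ptgs2, and male EG cells for Grem1. The GS arrays lay above every other array for 5 genes. For Mmp3 they did not, because GS array 2 lay below both female ES arrays.

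**Figure D1:**
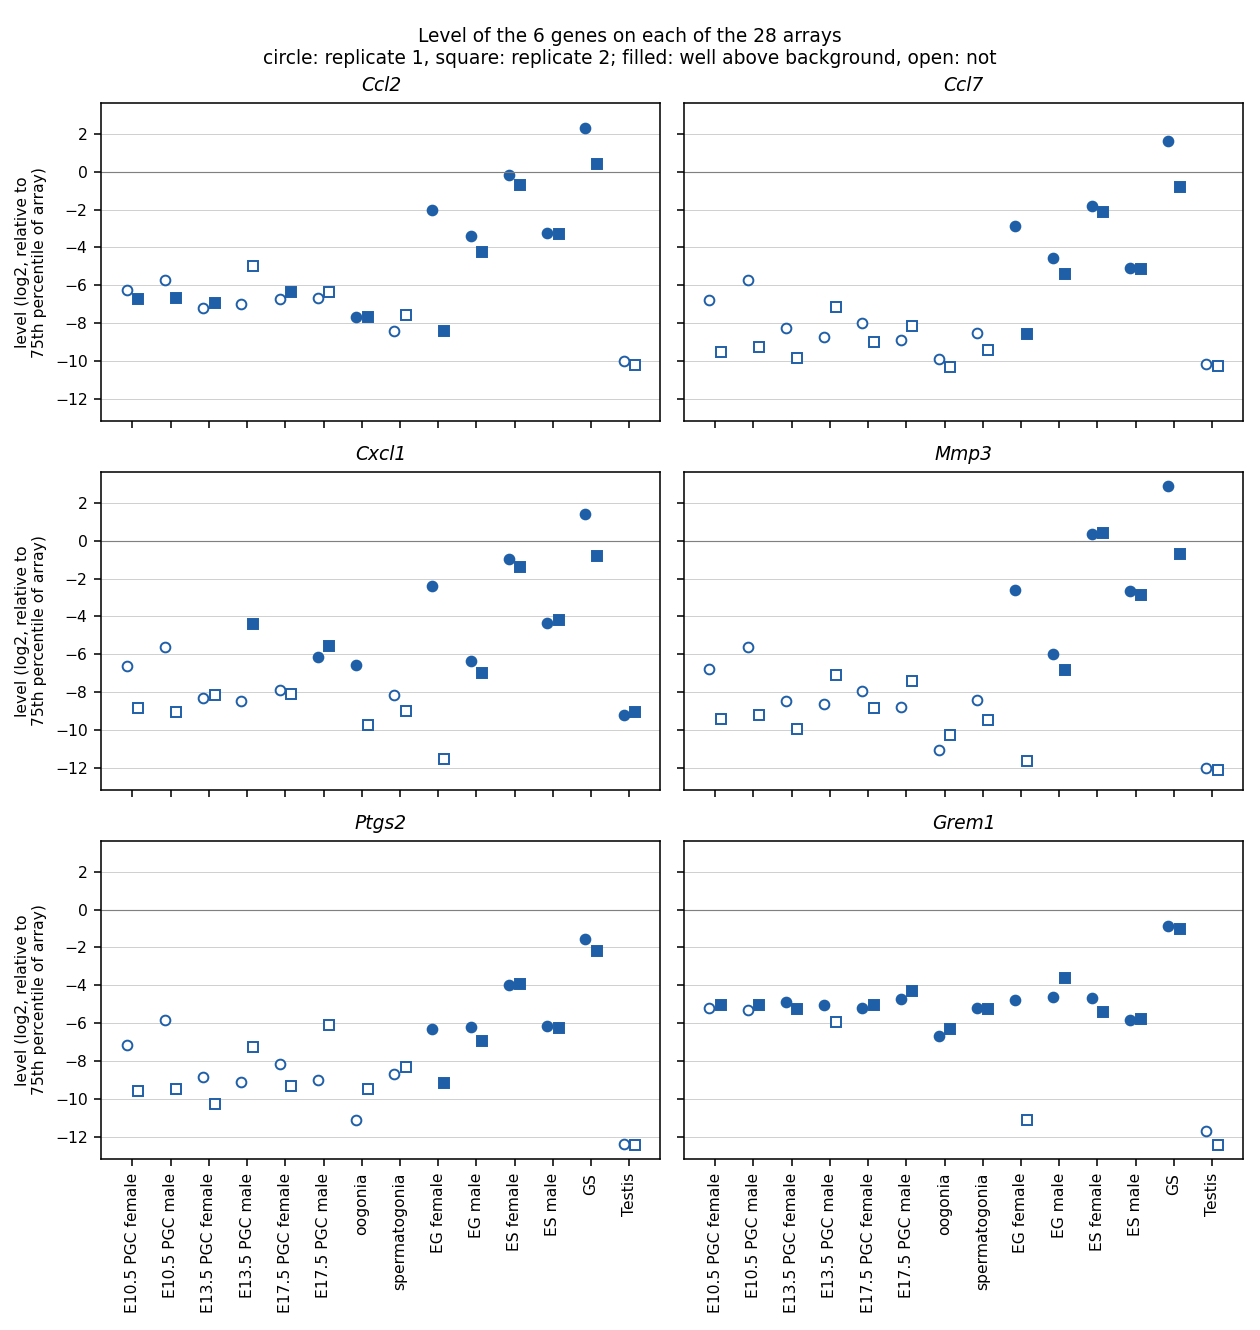
Level of each gene (log2, relative to the 75th percentile of the array) on the 28 arrays, by group. Circles are replicate 1, squares replicate 2, and filled symbols are well above background. Both GS arrays are at or near the top in every panel, EG female array 2 lies far below EG female array 1, and 5 of the 6 genes are not measured in spermatogonia.

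Ccl2, the main chemokine for monocytes, was measured on 16 of 28 arrays. Its level was 2.34 and 0.42 on the 2 GS arrays, -0.16 and -0.68 in female ES cells and -3.21 and -3.30 in male ES cells. In EG cells it was -2.03 and -8.40 on the female arrays and -3.38 and -4.24 on the male arrays. GS, female ES and male ES cells did not overlap, whereas the female EG arrays spanned the male EG arrays and all 12 PGC arrays. The 16 PGC, oogonia and spermatogonia arrays lay between -8.41 and -4.97, with a median of -6.74, and 6 of them were measured. Testis, at -9.99 and -10.19, was not well above background.

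Ccl7, a related monocyte chemokine, was measured on 10 arrays, all of them GS, ES or EG. Its level was 1.62 and -0.82 in GS cells, -1.83 and -2.13 in female ES cells and -5.11 and -5.14 in male ES cells. EG cells gave -2.89 and -8.60 for females and -4.54 and -5.42 for males. The order was thus GS, then female ES cells, with male EG and male ES cells overlapping below them. None of the 16 PGC, oogonia and spermatogonia arrays and neither testis array was well above background for Ccl7.

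Cxcl1, a neutrophil chemokine, was measured on 15 arrays. Its level was 1.42 and -0.83 in GS cells, -0.96 and -1.37 in female ES cells and -4.34 and -4.21 in male ES cells. GS array 2 lay only just above the female ES arrays, and both lay clear of the male ES arrays. In EG cells it was -2.37 and -11.53 for females, the second not well above background, and -6.33 and -7.01 for males. Unlike Ccl7, it was measured in both male PGC arrays at 17.5 days, at -6.14 and -5.54, and in both testis arrays, at -9.20 and -9.07.

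Mmp3, also called stromelysin, was measured on 9 arrays, the fewest of the 6. Its level was 2.87 and -0.70 in GS cells, 0.34 and 0.39 in female ES cells and -2.65 and -2.88 in male ES cells. GS and female ES cells overlapped, since the GS arrays lay on both sides of the female ES arrays. EG cells gave -2.60 and -11.64 for females, the second not well above background, and -5.96 and -6.81 for males. Male EG cells therefore lay below male ES cells, and Mmp3 was not well above background in any PGC, oogonia, spermatogonia or testis array.

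Ptgs2 was measured on 10 arrays, again GS, ES and EG alone. Its level was -1.53 and -2.21 in GS cells, -3.99 and -3.95 in female ES cells and -6.13 and -6.25 in male ES cells. EG cells gave -6.32 and -9.16 for females and -6.21 and -6.94 for males. Male EG and male ES cells overlapped, and the step from GS to female ES cells exceeded the spread of either.

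Grem1 had another pattern. Its brighter probe was measured on 22 arrays, including 13 of the 16 PGC, oogonia and spermatogonia arrays, where it lay between -6.68 and -4.28. GS cells stood apart at -0.86 and -1.01. EG cells gave -4.76 and -11.10 for females, the second not well above background, and -4.64 and -3.59 for males. ES cells, at -4.68 and -5.40 for females and -5.81 and -5.79 for males, lay within the range of the germ cell arrays, and testis, at -11.68 and -12.42, was not well above background. The 2 Grem1 probes disagreed outside GS cells. The dimmer probe was well above background on 5 arrays only: both GS arrays, at -7.35 and -7.15, both female ES arrays, at -8.84 and -10.10, and 1 male EG array, at -8.27. It was not measured in any of the 16 PGC, oogonia and spermatogonia arrays, so the Grem1 levels there rest on 1 probe. The dimmer probe did not rank GS cells first: its mean was -7.2537 there and -7.2523 in male PGC at 13.5 days, where it was not measured.

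Over the 14 group means, the Pearson correlation between any pair of Ccl2, Ccl7, Cxcl1, Mmp3 and Ptgs2 lay between 0.93 and 0.98, and that of Grem1 with each of them between 0.58 and 0.77. Among 10605 named genes measured on both GS arrays, the ones most like Ccl2 were Cxcl2 (0.98), Ccl7 (0.98) and Mmp3 (0.98). The nearest to Ccl7 were Anxa8 (0.99), Ccl2 (0.98) and Mmp3 (0.96), and the nearest to Cxcl1 were Mmp3 (0.96), Cxcl5 (0.95) and Ccl2 (0.95). Mmp3 was closest to Ccl2 (0.98), Cxcl5 (0.96) and Anxa8 (0.96), and Ptgs2 to Ccl2 (0.97), Mcpt8 (0.97) and Has2 (0.97). Among these lists Grem1 shared no neighbour: its 3 nearest were Fos (0.95), Nisch (0.91) and Tnfsf11 (0.90). The correlations share arrays and scaling, and they follow in part from how the genes were chosen: all 6 were picked for a high GS level, and the GS mean is among the 14. Ccl7, Mmp3 and Ptgs2 also had no array well above background in 9 of the 14 groups, so many of the means lie at the background. Without the GS mean the 5 genes gave 0.87 to 0.97 with each other and 0.33 to 0.64 with Grem1.

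Testis holds the germ cells from which GS lines are usually derived together with their somatic neighbours, and it lay on the same slide as the GS arrays. Against testis, GS cells were at least 2773-fold higher for Ccl2, at least 1457-fold for Ccl7, at least 2342-fold for Mmp3, at least 302.0-fold for Ptgs2 and at least 577-fold for Grem1. These are lower bounds: on each testis array the GS mean was set against the dimmest level measured there or the probe's own level, whichever was higher. Cxcl1 was measured on both sides and was 9.43 higher in GS cells on the log2 scale. With GS array 2 alone the bounds fell to 1426-fold for Ccl2, 626-fold for Ccl7 and 680.0-fold for Mmp3, with 239-fold for Ptgs2 and 547-fold for Grem1, and Cxcl1 was 8.30 higher. Against spermatogonia, which lay on another slide, the bounds were 289-fold for Ccl2, 147-fold for Ccl7, 136-fold for Cxcl1, 236-fold for Mmp3 and 30.5-fold for Ptgs2, and Grem1 was 4.29 higher on the log2 scale. With GS array 2 alone they were 149-fold, 63.1-fold, 62.3-fold, 68.6-fold and 24.1-fold, and 4.22 for Grem1. Since the GS levels chose the genes, none of these values has a test.

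Fibroblast markers were followed on the same arrays, as the number of 23 markers measured and as their summed level, the log2 of the sum of their scaled signals. The sum was 6.52 and 3.82 on the GS arrays, 3.41 and 2.81 in female ES cells, 1.38 and 1.29 in male ES cells, 2.31 and 1.39 in female EG cells and 2.65 and 3.17 in male EG cells. Spermatogonia had 3.20 and 3.08, and testis 2.07 and 1.62. GS and female ES arrays had 23 of 23 markers, and EG female array 2 had the fewest of these arrays, with 15 of 23. Of 5 defining markers (Col1a1, Col1a2, Col3a1, Postn and Pdgfrb), EG female array 2 had 1, Col1a1, against 4 on EG female array 1 and 5 on the other EG, GS and female ES arrays. The sum is weighted to the brightest markers, and the median marker level can rank arrays otherwise. On EG female array 2 the sum was near that of male ES cells. The median there was -8.00, against -4.83 and -5.10 in male ES cells. The 5 defining markers summed to -4.88 on that array, against -2.12 to -2.01 in male ES cells. The differences given below use the sum of 23 markers alone, and those of EG female array 2 depend on that choice. In bulk samples such as these, fewer cells of a type and less RNA per cell cannot be told apart.

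The genes and the fibroblast sum moved together on some arrays and not on others. Spermatogonia had a fibroblast sum close to that of GS array 2 and of the female ES arrays, yet Ccl2, Ccl7, Cxcl1, Mmp3 and Ptgs2 were not well above background there. Male ES cells had a sum below that of male EG cells, yet Mmp3 and Cxcl1 were higher on both male ES arrays than on either male EG array. Ccl2 minus the fibroblast sum was -4.18 and -3.40 on the GS arrays, -3.56 and -3.48 in female ES cells and -4.60 and -4.58 in male ES cells. It was -4.34 and -9.79 in female EG cells and -6.03 and -7.40 in male EG cells. In this measure GS array 1 lay within the range of the ES arrays and GS array 2 just above it, while 3 of the 4 EG arrays lay lower.

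For Mmp3 the difference from the fibroblast sum was -3.65 and -4.52 on the GS arrays, -3.07 and -2.42 in female ES cells and -4.03 and -4.17 in male ES cells. It was -4.91 on EG female array 1, at most -11.14 on EG female array 2, where Mmp3 was not well above background, and -8.61 and -9.98 in male EG cells. Female ES cells were thus highest for Mmp3 in this measure, and every EG array was lower than every GS and ES array. For Grem1 the difference was -7.38 and -4.83 in GS cells, against -8.20 to -7.07 in ES cells, -7.29 and -6.76 in male EG cells and -8.40 and -8.33 in spermatogonia. Only GS array 2 stood clear of those groups. For Cxcl1 the difference was -5.10 and -4.65 in GS cells, below the -4.37 and -4.18 of female ES cells. For Ptgs2 it was -8.05 and -6.03 in GS cells, on both sides of the -7.40 and -6.76 of female ES cells. For Ccl7 it was -4.90 and -4.64 in GS cells, just above the -5.24 and -4.93 of female ES cells. Over the 14 group means, each gene was correlated with the 23 fibroblast markers. The median lay between 0.47 for Mmp3 and Ccl2 and 0.54 for Cxcl1 and Ptgs2. Over all 10605 candidates the medians were -0.04 to 0.09. The genes were picked for a high GS level, and the fibroblast sum was also highest in GS cells. Since the GS mean is among the 14, these correlations follow in part from that choice.

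**Figure D2:**
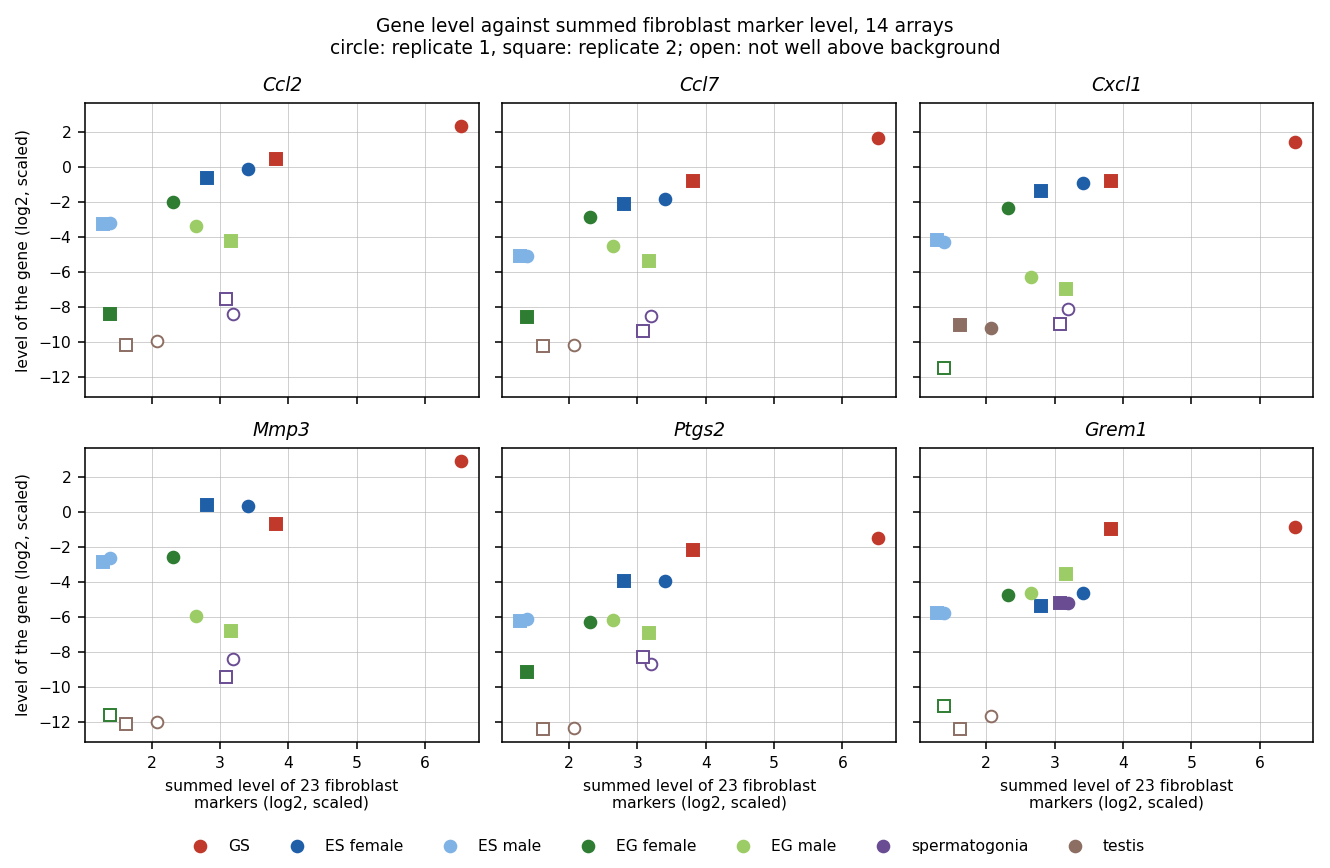
Level of each gene against the summed level of 23 fibroblast markers (both log2, scaled) on the 14 arrays of GS, ES, EG, spermatogonia and testis. Circles are replicate 1, squares replicate 2, and open symbols are not well above background. Spermatogonia lie at a sum of 3.08 to 3.20, near female ES cells, and are open for every gene but Grem1.

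The 2 GS arrays differed in most of these genes. Array 1 exceeded array 2 by 1.92 on the log2 scale for Ccl2, 2.44 for Ccl7, 2.26 for Cxcl1 and 3.57 for Mmp3, but by only 0.68 for Ptgs2 and 0.15 for Grem1. The median difference was 2.88 over the fibroblast markers, of which 22 of 23 were higher on array 1, and 0.14 over the 29161 genes measured on at least 1 of the 2 arrays. It was -0.74 over 10 germ cell markers and -2.0 over 9 pluripotency markers. In these medians a value not well above background was raised to the dimmest level measured on its array. Of the pathway lists described below, NF-kB targets had a median of 2.27, matrix metalloproteases and inhibitors 2.07 and other chemokines 1.75. Bone morphogenetic protein genes had 0.91, prostaglandin genes 0.16 and chemokine receptors 0.03. Ccl2, Ccl7, Cxcl1 and Mmp3 thus differed between the GS arrays about as far as fibroblast markers and several of these lists did, and Ptgs2 and Grem1 by less. The part of the fibroblast markers, or of any other list, in these differences was not tested.

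The female EG arrays were further apart than the GS arrays. Array 1 exceeded array 2 by 6.38 for Ccl2, 5.71 for Ccl7 and 2.84 for Ptgs2. Cxcl1, Mmp3 and Grem1 were not well above background on array 2, and the dimmest level measured there puts their differences at no less than 7.39, 7.16 and 5.00. The median over 23211 genes was 0.04, and pluripotency markers differed by a median of -0.19. Fibroblast markers were higher on array 1 in 19 of 21 cases, by a median of 3.07. Macrophage and leukocyte markers were higher in 12 of 12, by a median of 5.68, and 12 of 12 were measured on array 1 against 2 of 12 on array 2. Between the male EG arrays the first 5 genes were higher on array 1 by 0.68 to 0.88 and Grem1 was lower by a difference of -1.05. There the fibroblast markers had a median difference of -0.50 and 11 of 11 leukocyte markers were higher, by a median of 2.57. In the male pair Grem1 thus had the sign of the fibroblast markers, and the other genes had the sign of the leukocyte markers. The part of either marker list was not tested.

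**Figure D3:**
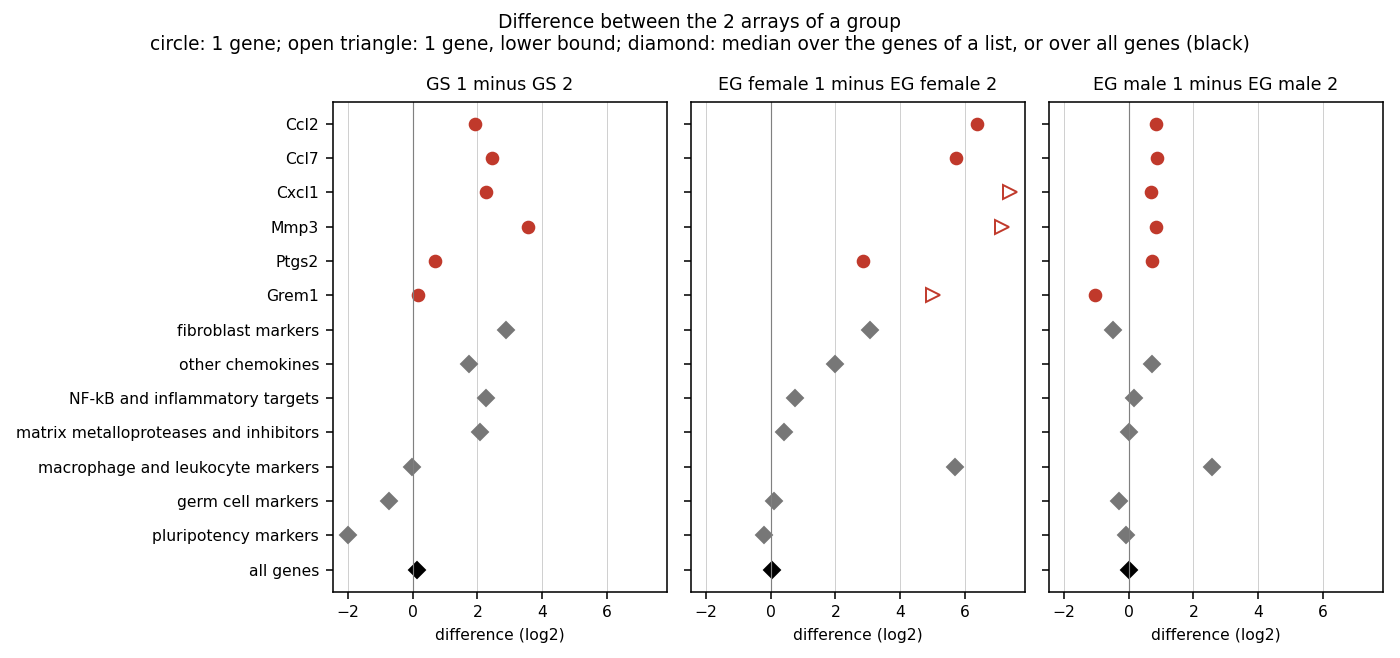
Difference (log2) between array 1 and array 2 of GS, female EG and male EG cells. Circles are the 6 genes, open triangles are lower bounds for genes not well above background on array 2, grey diamonds are medians over the genes of a list and the black diamond is the median over all genes measured, which lies at 0.14, 0.04 and 0.02. Cxcl1 and Mmp3 differ by at least 7.39 and 7.16 between the female EG arrays.

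EG and ES cells were compared as the other cultured lines, with no GS array in the contrast. All 6 genes had lower means in EG than in ES cells, and 1 of 6 passed the test, against 7.06% of 23227 genes called in either direction and 2.26% called lower. Mmp3 fell by 5.55 ± 1.39 (SE, 4 arrays against 4) on the log2 scale, with an adjusted p of 0.0242 from limma. The other differences did not pass: -4.09 ± 1.45 for Cxcl1 (adjusted p 0.10), -2.67 ± 0.90 for Ccl2 (0.0853), -2.08 ± 0.85 for Ptgs2 (0.157), -1.81 ± 1.02 for Ccl7 (0.319) and -0.60 ± 0.83 for Grem1 (0.733). Cxcl1, Mmp3 and Grem1 were measured on 3 of the 4 EG arrays. Beside them, 0 of 23 fibroblast markers passed, with a median of -0.68. Leukocyte markers had a median of 2.27, and 1 of 11 rose, C1qb, a complement component, by 3.42 ± 0.98 (adjusted p 0.0448).

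The size of the EG against ES differences, and the direction for Grem1, depended on EG female array 2. Without it the difference was -3.29 for Mmp3 (adjusted p 0.0578), -1.08 for Ccl2, -0.39 for Ccl7, -1.80 for Cxcl1 and -1.37 for Ptgs2, and it turned to 0.98 for Grem1, which was also 0.11 with normexp. The Mmp3 call was lost as well without any one of 6 other arrays, where the difference stayed between -5.77 and -5.34. It was lost at the same difference of -5.55 without the filter on dim probes (adjusted p 0.0534), with only EG and ES arrays in the fit (0.0703) and with slide as a random block (1). Without EG female array 1, 5 genes were called, against 4.6% of 23923 genes in that setting. EG and ES arrays lay on separate slides scanned on separate days, so slide and line cannot be told apart in this comparison.

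**Figure D4:**
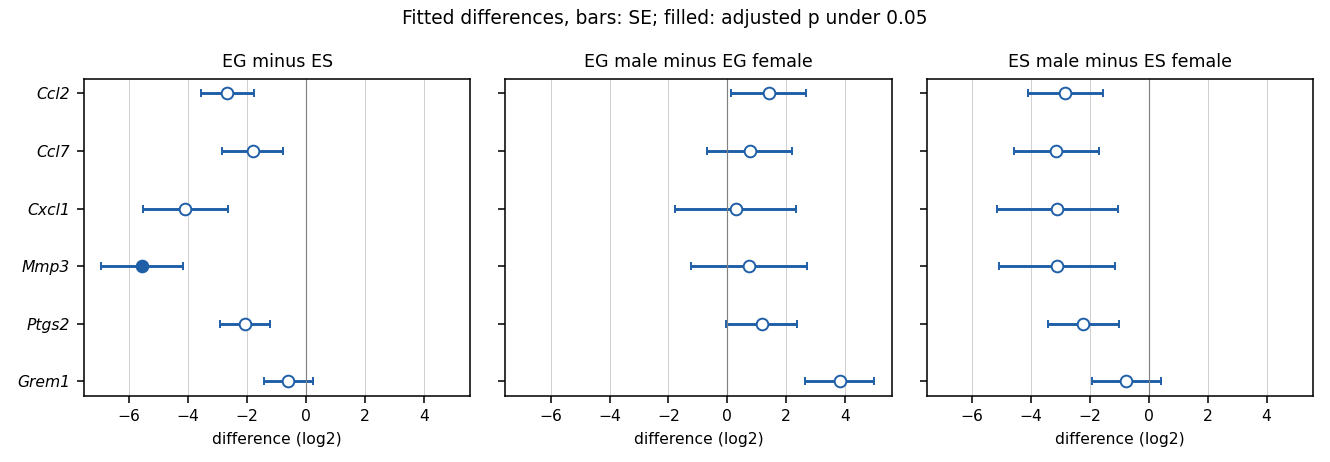
Fitted differences (log2) of the 6 genes, with SE, for EG minus ES cells, male minus female EG cells and male minus female ES cells. Filled points have an adjusted p under 0.05. Mmp3 in EG minus ES, at -5.55, is the filled point, and all 6 genes lie below 0 in male minus female ES cells.

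Male and female EG cells were compared next. None of the 6 genes was called by limma, against 1.32% of 21854 genes, and 1 had an unadjusted p under 0.05. That gene was Grem1, higher in males by 3.81 ± 1.17 (SE, 2 arrays against 2), with an adjusted p of 0.145. The others had differences of 0.28 to 1.41. Without EG female array 2 the sign turned for the other 5, to -1.78 for Ccl2, -2.09 for Ccl7, -4.30 for Cxcl1, -3.79 for Mmp3 and -0.25 for Ptgs2, so no direction can be read. Leaving out EG female array 1 instead, 2 genes were called, against 2.63% of 22845 genes.

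Male ES cells lay below female ES cells on every array for Ccl2, Ccl7, Cxcl1, Mmp3, Ptgs2 and Grem1, although none of the 6 was called, against 4.90% of 21696 genes. By limma, 2 had an unadjusted p under 0.05: Ccl2, at -2.84 ± 1.27 (adjusted p 0.250), and Ccl7, at -3.14 ± 1.45 (0.266). Cxcl1 gave -3.10 ± 2.04 (0.494), Mmp3 -3.13 ± 1.97 (0.466), Ptgs2 -2.22 ± 1.20 (0.374) and Grem1 -0.76 ± 1.17 (0.838). Fibroblast markers had a median of -2.57 in the same comparison, with 0 of 23 called, against -0.08 over all genes. The spread in this test is shared by all groups. For Cxcl1, for example, the SD of the 2 arrays was 0.09 in male and 0.29 in female ES cells, but 6.48 in female EG cells. With only the ES arrays in the fit 5 genes were called, against 17.1% of all genes tested. Without EG female array 2, an alternative added after the data were seen, 1 was, Ccl2, with an adjusted p of 0.0149, against 5.26%.

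A test of whether the sex difference differed between EG and ES cells called none of the 6 genes by limma, against 2.26% of 23227 genes. Unadjusted p-values were under 0.05 for 2 of them, Ccl2, with a difference of 4.25 ± 1.80 (adjusted p 0.287), and Grem1, with 4.57 ± 1.66 (0.190). With EG female array 1 left out, 5 genes were called, against 3.3% of 23923 genes.

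Grem1 and Cxcl1 alone could be tested between testis and spermatogonia, and Grem1 was called. It entered the test through spermatogonia only. The level of its brighter probe was -11.68 and -12.42 in testis, not well above background, and -5.20 and -5.25 in spermatogonia. Grem1 was thus at least 29.4-fold lower in testis, a lower bound that has no test of its own. The limma adjusted p of 0.000169 belongs to the fitted difference of -6.82 ± 1.18, which uses testis values at the background. A gene that enters through 1 group only is likely to be lower in the other, so the call adds no separate support for the direction. The dimmer Grem1 probe was not well above background in either group, so the call rests on 1 probe. Of the 6 genes 2 could be tested and 1 was called, against 44.8% of 28813 genes in either direction and 19.6% called lower, so the share is near the background. The second, Cxcl1, was measured in testis alone and differed by -0.56 ± 2.05 (adjusted p 0.862). The Grem1 call was lost with slide as a random block, and these groups lay on separate slides scanned on separate days, so slide and group cannot be told apart.

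In PGC, the brighter Grem1 probe lay between -5.95 and -4.28. It was well above background on 2 of 4 arrays at 10.5 days, 3 of 4 at 13.5 days and 4 of 4 at 17.5 days. The dimmer probe was measured on no PGC array, so these values rest on 1 probe. Grem1 differed by -0.14 ± 0.81 between 13.5 and 10.5 days (adjusted p 0.911). Between 17.5 and 13.5 days the difference was 0.47 ± 0.83 (adjusted p 0.663). Cxcl1, testable in the later step only, differed by 0.41 ± 1.44 (adjusted p 0.830). By limma 0 of 1 and 0 of 2 genes were called, with 0 and 0 at an unadjusted p under 0.05, against 39.3% of 13893 genes and 45.8% of 16851 genes. Within the slide that held both stages the differences were 0.30 for Grem1 in the first step and, in the second, 0.95 for Grem1 and -0.55 for Cxcl1. By scan day, Grem1 gave 0.30 and -0.57 in the first step and -0.01 and 0.95 in the second, and Cxcl1 gave 1.38 and -0.55 in the second. The other genes were not measured on both arrays of any PGC group compared.

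The wider pathways of the 6 genes were followed in GS cells through lists of other chemokines, chemokine receptors, matrix metalloproteases and their inhibitors, prostaglandin enzymes and receptors, bone morphogenetic protein (BMP) genes and NF-kB targets, which hold 147 genes on the array beside the 6. Of 120 tested against testis, 64 rose and 14 fell in GS cells, where 20.1% of 30298 genes were called higher and 27.2% lower. Of 104 tested against spermatogonia, 37 rose and 6 fell, where 12% of 26023 genes were called higher and 13.5% lower. Without GS array 1 the 37 became 20. Fibroblast markers rose in 15 of 23 cases against testis and in 9 of 23 against spermatogonia, and none fell. Their part in the pathway counts was not tested.

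Among the NF-kB targets 15 of 22 rose and 1 fell against testis, and 15 of 19 rose and none fell against spermatogonia, with medians of 2.56 and 3.21 beside medians of -0.15 and 0.02 over all genes. The 4 with the brightest probes in GS cells were Irf1, a transcription factor, at 1.51 and 1.38 on the 2 arrays, the acute-phase gene Saa3, at 4.12 and -1.66, Cebpd, at 2.00 and 0.28, and Nfkbia, the NF-kB inhibitor, at 1.74 and -0.06. All of 21 measured targets were higher on GS array 1 than on array 2.

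Matrix metalloproteases and their inhibitors, the family of Mmp3, rose in 16 of 20 cases against testis and 9 of 20 against spermatogonia, and none fell. Among those with the brightest probes in GS cells were the gelatinase Mmp2, at 2.55 and -0.76, the inhibitor Timp1, at 1.22 and 0.43, and the membrane-bound Mmp14, at 1.96 and -0.71. Mmp2 is also in the fibroblast list. In EG against ES cells 2 of 19 were called, both lower, where 2.26% of all genes were called lower: Mmp1a, at -2.63 ± 0.68 (adjusted p 0.0282), and Timp2, at -2.0 ± 0.58 (adjusted p 0.0498).

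The other chemokines were divided. Against testis 7 of 21 rose and 7 fell, where 20.1% of all genes rose and 27.2% fell, and against spermatogonia 5 of 15 rose and 3 fell, where 12% rose and 13.5% fell. The brightest probes in GS cells were those of Ccl8, at 2.23 and -3.23, Cxcl5, at 1.32 and -4.17, Cxcl2, at -0.89 and -2.64, and Cxcl14, at 0.37 and -5.02, each far higher on array 1. In EG against ES cells 1 of 16 was called, where 7.06% of all genes were, Cxcl5, a neutrophil chemokine like Cxcl1, at -4.26 ± 1.12 (adjusted p 0.0296). Of the chemokine receptors, 2 of 11 rose and 3 fell against testis, and 1 of 7 rose and none fell against spermatogonia, beside the same shares of all genes.

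In the prostaglandin pathway of Ptgs2, 7 of 16 genes rose and 3 fell against testis, and 3 of 12 rose and 1 fell against spermatogonia. The shares of all genes were 20.1% higher and 27.2% lower against testis, and 12% and 13.5% against spermatogonia. The synthases Ptges2, Ptges3 and Ptges and the prostacyclin synthase Ptgis had the brightest probes in GS cells. They differed less between the GS arrays than Ptgs2 did: -1.76 and -1.81, -2.42 and -2.15, -2.86 and -2.77, and -3.65 and -3.86. Not all of the list did: over its 13 genes measured on at least 1 GS array, 2 of them on 1 alone, array 1 minus array 2 ran from -0.70 to 7.25. In EG against ES cells 3 of 12 were called, where 7.06% of all genes were: the receptor Ptger2 rose by 1.56 ± 0.35 (adjusted p 0.0147) and the prostaglandin D synthase Ptgds by 2.77 ± 0.71 (0.0275), and Ptgis fell by 1.09 ± 0.24 (0.0117).

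In the BMP pathway, on which Grem1 acts, 17 of 30 genes rose and none fell against testis, where 20.1% of all genes rose and 27.2% fell. Against spermatogonia 4 of 31 rose and 2 fell, near the 12% higher and below the 13.5% lower over all genes. In GS cells the brightest probes included those of Fstl1, at 3.45 and 0.36, which the fibroblast list also holds, and of the targets Id3, at 2.33 and 0.68, and Id1, at 0.65 and -1.10. Fstl1, Id3 and Id1 were each higher on GS array 1, by more than Grem1 was. In EG against ES cells 2 of 28 were called, near the 7.06% of all genes: Id2 rose by 1.73 ± 0.34 (adjusted p 0.00625) and Bmp7 by 0.94 ± 0.27 (0.0470).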

How the data were processed

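Total RNA of 28 samples was labelled with Cy3 and hybridised to 1-colour arrays. Per the file headers, the authors deposited the scanner output of Agilent Feature Extraction 10.5.1.1, in which the processed signal is an intensity on a linear scale, and a table of log2 values. The deposited log2 table equals log2 of the processed signal minus a constant for each array (100% of values within 0.01). From the intensity, log2 was taken and each array's 75th percentile over the 7227 probes well above background on all arrays was subtracted. The 1417 control spots and 514 non-uniform probes were left out, and no spot was saturated. Of 43803 probes, 16760 matched 13143 symbols. A gene was represented by its probe of highest mean, and tested if 1 or more of the compared groups had both its arrays well above background for it.

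Tests used limma 3.58.1 in R 4.3.3, with 1 mean for each of 14 groups over all 28 arrays, Benjamini-Hochberg adjustment over all genes tested and a threshold of 0.05. The script was tested on simulated data. Figures were drawn with matplotlib 3.10.9. The number of arrays, 2 in each group, limits the precision. Named genes, beside the 6, were the 3 most correlated with each over group means, the 4 of each list highest in GS cells, and up to 3 of each list with the largest change called in EG against ES; some of these are not reported here. The genes and lists were chosen with earlier results of these data known. Alternatives were other scalings, the deposited values, normexp background correction (offset 50, on the median signal, since the files read here hold no mean signal), no filter, other fits and blocks, and leaving out arrays. Replicate numbers come from the titles, which tie them to no shared animal. Among the 12 PGC arrays, per the file headers, replicate 1 was scanned on 1 day and replicate 2 on another. Same-numbered arrays there deviated together with correlations of 0.31 to 0.54. The block changed no call among the 6 genes there. Over all genes the number called went from 5457 to 5753 between 13.5 and 10.5 days, and from 7720 to 8037 between 17.5 and 13.5 days.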

Additional observations from a re-analysis of the deposited data

Results flagged for a closer look

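An array was picked out where its gap to the nearest of the other 3 arrays of a stage or line exceeded Dixon's critical value for 4 samples. For 4 draws from 1 distribution chance does so in about 1 in 20 groups. The 4 arrays here hold both sexes and some values at the background, so that rate is a rough guide and the rule no test. Among the EG arrays, Grem1 on female array 2 was -11.10, against -4.76 on the next lowest, and 3 of the 4 arrays were well above background. Among the 13.5-day PGC arrays, male array 2 was highest for Cxcl1, at -4.40 against -8.13 on the next, and was the 1 array well above background. The same array was highest for Ccl2, at -4.97 against -6.92, but was not well above background there. The dimmest level measured on 13.5-day male array 2 was -4.99, against -7.96 to -6.55 on the other 13.5-day arrays. Values at the background therefore lie higher on that array.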

How the results depend on the processing

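All 6 genes kept their highest mean in GS cells under the 3 alternatives tried for it, a rank that the choice of the genes on these arrays largely fixed. Of the 6, those called in EG against ES were 1 in the main setting, 4 with the deposited values, 0 without a filter on dim probes, 0 with slide as a random block and 0 to 5 when 1 array was left out. In male against female EG cells leaving out 1 array gave 0 to 2, and in the sex by line test 0 to 5. In male against female ES cells 5 were called with only the compared groups in the fit, and 1 without EG female array 2, added after seeing the data. In testis against spermatogonia 2 were called with normexp, where 74.1% of all genes were, 2 without a filter, where 48.1% were, and 0 with slide as a random block. List genes higher in GS than in spermatogonia numbered 20 to 49 when 1 array was left out, against 37. The causes of these changes were not tested. Signs turned, all without a call. In male against female EG cells, without female array 2, they became -1.78 for Ccl2, -2.09 for Ccl7, -4.30 for Cxcl1, -3.79 for Mmp3 and -0.25 for Ptgs2, the lowest of the values with 1 array left out, and the highest, without female array 1, were 4.60, 3.62, 4.86, 5.25 and 2.59. Without male array 1 Cxcl1 was -0.06, with quantile normalization -0.46 and with normexp -1.14, and Mmp3 with normexp was -0.74. In the sex by line test without EG female array 2, Cxcl1 was -1.20 and Mmp3 -0.66, and without EG female array 1 they were 7.96 and 8.38. Grem1 in EG against ES was 0.11 with normexp and 0.98 without EG female array 2, and -2.19 without EG female array 1. Grem1 between 13.5 and 10.5 days was 0.12 with the deposited values, 0.30 with slide as a fixed block, 0.091 with slide as a random block, 0.092 without 13.5-day male array 2 and -0.36 without 13.5-day male array 1. Cxcl1 between 17.5 and 13.5 days was -0.23 with quantile normalization, -0.55 with slide as a fixed block and -0.60 without 13.5-day male array 1, and 1.43 without 13.5-day male array 2. With the replicate number as a block the number called stayed at 1 in EG against ES, 1 in testis against spermatogonia and 0 elsewhere, and list genes higher in GS than in spermatogonia were 40. Same-numbered arrays deviated together with correlations of -0.14 to 0.14 in EG against ES and 0.31 to 0.54 in PGC, where the number goes with the scan day. Genes called over the whole array in EG against ES ranged from 0 with slide as a random block to 5984 with only the compared groups in the fit, against 1639. They were 802 with quantile normalization, 1004 with the deposited values, 490 with normexp and 712 without a filter. In ES male against female they ranged from 231 to 3717, against 1063, and in EG male against female from 4 to 1023, against 289.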
